A study of Mus musculus with 2 samples.

Results

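The genes Pparg, Fabp4, Cd36, Plin1, Adipoq, Lpl, Cfd, Cidec, Retn and Lipe, which mark fat cells, were read in cultured mouse ovaries as a check on fat attached to the organ. All array probes whose RefSeq accession belongs to 1 of these 10 genes were taken, which gave 13 probes at 22 spots, of 20658 genes named on the array. The rule uses gene names and no measured value, though the genes were chosen with earlier results of these data known. The RNA came from ovary pieces, taken lengthwise at an age of 2 weeks and kept in culture for 3 days, either with agonists of the tachykinin receptors TACR1, TACR2 and TACR3 (among them GR-64349 for TACR2) or with antagonists of the same receptors (among them GR-94800 for TACR2 and SB218795 for TACR3). Each ligand was at 1 μM. No gene was deleted in either group, and the mouse strain and the number of ovaries behind each RNA are not given in the sources used here. One array was hybridised per group, so the spread from ovary to ovary is unknown and no statistical test could be run. An array without ligand was not analysed here.

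White fat surrounds the bursa of the mouse ovary and can remain attached when the organ is dissected. A fat cell differentiates under the nuclear receptor PPARG, takes up fatty acids that lipoprotein lipase frees from circulating triglyceride, stores them in a lipid droplet coated by perilipin 1 and CIDEC, and secretes adiponectin, complement factor D and, in mice, resistin. These genes differ in how closely they mark fat. Adipoq, Cfd and Cidec belong to the mature fat cell in most tissues, whereas Pparg, Cd36, Lpl and Fabp4 are also known from granulosa cells, macrophages or capillary endothelium, and Lipe from steroid-producing cells.

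Each spot signal below is the deposited background-subtracted intensity, in signal units. A spot is well above background when the image analysis software marks it so. The lowest signal of any probe so marked was 18.1 (agonists) and 19.9 (antagonists). Log2 ratios give the agonist array over the antagonist array once each was divided by its 75th percentile, so 1 stands for a 2-fold higher level with the agonists. The error given with a ratio comes from the error of the spots (the software's estimate for a single spot, or the SD over spots) and leaves out any difference between ovaries. The 15258 named genes that were well above background on both arrays had log2 ratios centred on a median of -0.10 (SD 0.48 across genes). No spot was saturated (0 on either array), and both arrays were on the same slide.

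The 10 genes differed in detection and in ratio. On the probe that stands for each gene, 7 were well above background on both arrays, 1 on the agonist array only (Cidec), 1 on the antagonist array only (Cfd) and 1 on neither (Adipoq). Over all 20658 named genes 73.9% were well above background on both arrays and 21.2% on neither. The 7 of 10 on both arrays was thus near the share of all genes. Fabp4 was the 1 gene of the 9 measurable ones (above that limit on either array) that reached a 2-fold higher level with the agonists, and 0 reached a 2-fold lower level. Over all 16278 measurable genes, 734 (4.51%) were that much higher and 139 (0.854%) that much lower, and with spike-in scaling these became 1241 and 73. The median log2 ratio of the 7 genes was 0.59, against -0.10 for all genes. In RNA of a whole piece of ovary, a change in the number of cells of a type and a change in RNA per cell cannot be told apart.

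**Figure D1:**
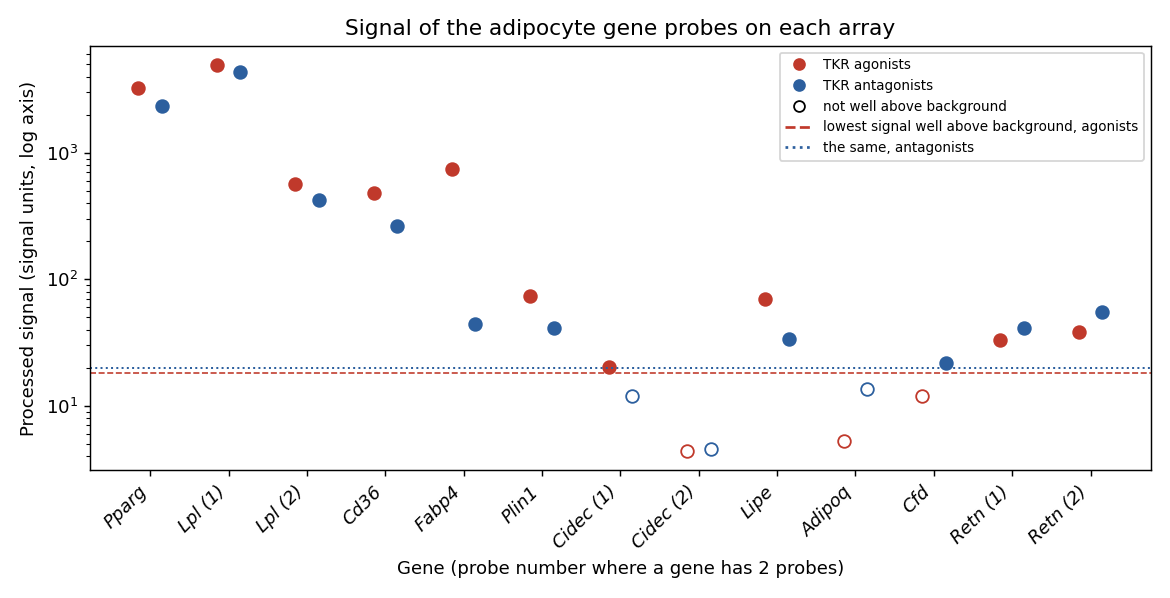
Processed signal of each of the 13 probes on the agonist array (red) and the antagonist array (blue), on a log axis in signal units, with open circles where the probe was not well above background and dashed and dotted lines at the lowest signal well above background on each array. Each point is 1 spot, or the mean of 10 spots for Pparg. Adipoq and the probe Cidec (2) lie below the lines on both arrays, and Fabp4 has the widest gap between the arrays.

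Sequence in front of the start sites was read from RefSeq windows on assembly GRCm38.p6 for 8 of the 10 genes, 12 windows in all; Fabp4 and Lpl found no window. The letters searched were AGGTCA, 2 copies of AGGTCA in the same direction with 1 base between them, which PPARG binds together with RXR, and TTGCNNAA, a short form of the site of C/EBP factors, which act beside PPARG in fat cells. Each was searched on both strands in the 250 bases before the start. The pair of copies was in 0 of the 12 windows and in 0.0335% of all 32851 windows. The single copy was in 3 of the 12 windows, from 2 genes (Cd36 and Pparg), and in 14.0% of all windows. TTGCNNAA was in 1 window each of 3 genes, Cidec, Plin1 and Pparg, and in 9.56% of all windows. These 3 windows are shown because they are all those of the 12 that hold TTGCNNAA, whatever the signal of the gene. Capitals mark the TTGCNNAA matches on either strand; a match describes the letters and not binding. The Pparg window, at chr6:115421816-115422065 on the plus strand, lies before the most downstream of the 3 Pparg starts in the table, from which an isoform largely restricted to fat cells is known to be made; its 2 matches begin 215 and 16 bases before the start. The Plin1 window is chr7:79732777-79733026 on the minus strand, with matches at 187 and 58 bases. The Cidec window is chr6:113434765-113435014 on the minus strand, with its match at 198 bases.
Pparg: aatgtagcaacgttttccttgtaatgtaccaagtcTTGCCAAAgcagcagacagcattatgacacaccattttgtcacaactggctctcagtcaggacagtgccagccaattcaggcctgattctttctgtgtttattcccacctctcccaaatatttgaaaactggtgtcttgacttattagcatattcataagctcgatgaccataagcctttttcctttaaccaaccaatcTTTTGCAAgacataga
Plin1: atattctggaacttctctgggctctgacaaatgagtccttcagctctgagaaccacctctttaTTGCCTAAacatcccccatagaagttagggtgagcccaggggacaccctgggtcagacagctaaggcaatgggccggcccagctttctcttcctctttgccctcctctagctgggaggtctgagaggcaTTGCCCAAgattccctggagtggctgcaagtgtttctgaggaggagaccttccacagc
Cidec: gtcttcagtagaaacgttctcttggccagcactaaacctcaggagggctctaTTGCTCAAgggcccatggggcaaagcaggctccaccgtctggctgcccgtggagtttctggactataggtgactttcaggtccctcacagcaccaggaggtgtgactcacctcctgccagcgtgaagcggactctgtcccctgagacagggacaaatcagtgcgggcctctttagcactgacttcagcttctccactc

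Pparg, the nuclear receptor that drives fat cell differentiation and is also made by granulosa cells, was printed at 10 spots. Its signals lay between 3025 and 3422 with the agonists, averaging 3271 ± 113 (SD over 10 spots), and between 2178 and 2448 with the antagonists, averaging 2348 ± 71.8 (SD over 10 spots). Every spot on both arrays was well above background. The unscaled signals of the 2 groups of spots did not overlap, but the agonist array was also brighter at its 75th percentile (672 against 569). How often other probes printed at 10 spots show such a gap was not tested. The Pparg log2 ratio was 0.48 without scaling and 0.24 ± 0.07 (SD over 10 spots) after it. The scaled ratio was 0.33 above the median of all genes, within the SD of 0.48 across genes. The files give no probe sequence, so it is not known whether the probe reads every Pparg isoform or only some of them.

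Lpl, Cd36 and Fabp4 act in the uptake and carriage of fatty acids. Lpl, the lipase that frees fatty acids from lipoprotein triglyceride, had 2 probes. The first gave 4915 on the agonist array against 4377 on the other, for a log2 ratio of -0.07 ± 0.20 (spot error). The second gave 563 and 420, a log2 ratio of 0.18 ± 0.20 (spot error). Both probes were well above background on both arrays and their ratios lay within 1 error of 0. The sign of the first probe also depended on the scaling, with values from -0.13 to 0.20 over the alternatives. Cd36, a fatty acid transporter and scavenger receptor of fat cells, macrophages and capillaries, gave 481 with the agonists and 264 with the antagonists. Its log2 ratio was 0.63 ± 0.21 (spot error), or 1.54-fold higher with the agonists, and 91.5% of genes had a lower ratio.

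Fabp4 stood apart from the other 9. It encodes the fatty acid binding protein of fat cells, known as aP2, which is also made by capillary endothelium and macrophages. It was measured by 1 spot of 1 probe for NM_024406. With the agonists the signal was 739 ± 74.0 (software error of the spot), against 44.2 ± 6.06 in the other group, well above background on both arrays and not marked as an outlier on either. The log2 ratio was 3.82 ± 0.24 (spot error), a 14.1-fold higher level with the agonists. Only 2 of the 15258 genes well above background on both arrays had a larger ratio, F13a1 (4.43) and Paqr5 (4.28), which are named because of their values. Over the alternatives the ratio was lowest under normexp background correction (2.52) and highest under spike-in scaling (4.10), and Fabp4 was past 4-fold in all of them. No other probe was matched to Fabp4 to set beside it.

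**Figure D2:**
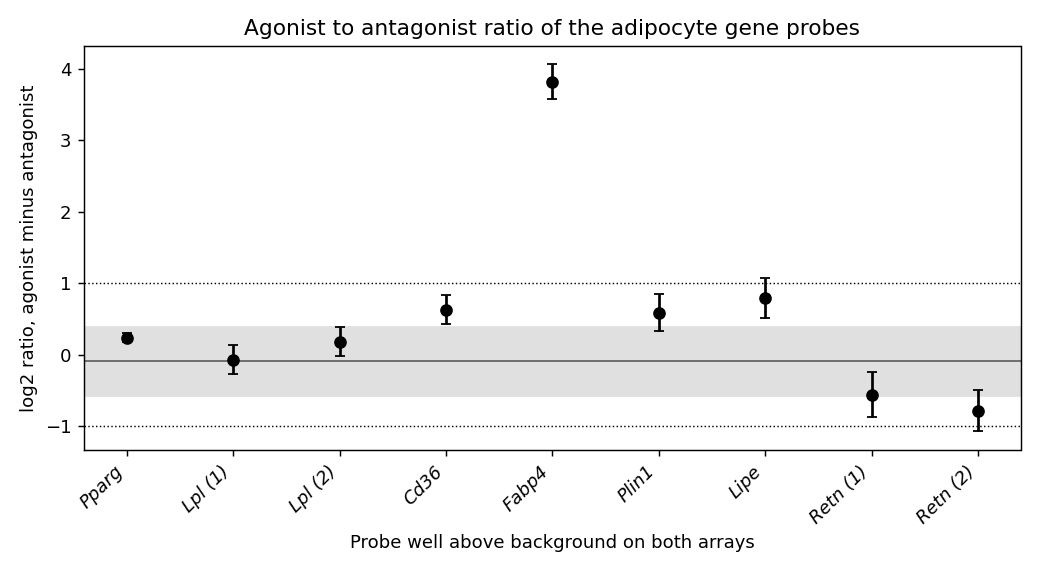
The log2 ratio, agonist minus antagonist, of the 9 probes that passed the background limit on both arrays, with bars for the spot error (SD over 10 spots for Pparg, the software's estimate for the rest). The grey line and band give the median and SD of the log2 ratio over 15258 genes, and the dotted lines mark a 2-fold difference. Fabp4 lies at 3.82 and the other probes between the 2-fold lines.

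The genes of the lipid droplet gave low signals. Plin1, the coat protein of the fat cell's droplet, gave 73.2 with the agonists and 41.3 with the antagonists, well above background on both, with a log2 ratio of 0.59 ± 0.26 (spot error). Lipe, hormone-sensitive lipase, gave 69.7 and 33.9, also well above background on both, with a log2 ratio of 0.80 ± 0.28 (spot error). Both ratios were over 2 errors above 0 and below 2-fold with the 75th percentile scaling. They shrank with the normexp background correction, to 0.24 for Plin1 and 0.19 for Lipe, and Lipe passed 2-fold unscaled (1.04) and on spike-in controls (1.07). Cidec, which joins droplets into a large one, had 2 probes that disagree on detection. The first gave 20.4 with the agonists, just above the limit, and 11.9 with the antagonists, below it. The second gave 4.42 and 4.58, below the limit on both arrays. No fold is given for Cidec, because after scaling its agonist signal did not exceed the lowest detected antagonist signal.

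Adipoq, Cfd and Retn encode secreted products of fat cells. Adipoq (adiponectin), a protein made in quantity by mature fat cells and by few others, gave 5.30 with the agonists and 13.6 with the antagonists, not well above background on either array, and no fold is given for it. The software still marked both Adipoq spots as positive and as differing from background by its own test. Cfd (complement factor D, or adipsin), likewise abundant in mouse fat, gave 12.0 with the agonists, below the limit, and 21.9 with the antagonists, just above it. In the scaling used for the ratios above, the lower bound for Cfd was 1.43-fold lower with the agonists, a log2 bound of -0.52. This bound was smaller in size than the spot error of the Cfd log2 ratio (0.56). Over the alternatives it ranged from -0.58 to -0.24, so 1.43-fold is not a firm minimum. Retn, which encodes resistin, had 2 probes, each well above background on both arrays. The brighter gave 38.1 on the agonist array against 55.6 on the other, for a log2 ratio of -0.79 ± 0.29 (spot error), and the dimmer gave 33.1 and 41.4, a log2 ratio of -0.56 ± 0.31. On the brighter probe Retn was 1.73-fold lower with the agonists.

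A further 20 genes of white fat cells were read in the same way, also chosen with earlier results of these data known. Of these, 16 were well above background on both arrays (73.9% over all named genes), 1 on the agonist array only and 3 on neither. With the agonists 2 of them were past 2-fold upwards and 0 downwards, and the median log2 ratio of the 16 was -0.15, which turned positive under spike-in scaling (0.13). The 3 genes not well above background on either array were Lep (leptin, the hormone of fat mass), Lgals12 and Trarg1. Plin4, another droplet coat protein, gave 124 on the agonist array against 47.5 on the other, for a log2 ratio of 1.14 ± 0.25, which fell to 0.45 with normexp. Mgll, monoglyceride lipase, gave 5012 and 1231, a log2 ratio of 1.78 ± 0.20, and its other probes gave 1.27 and 1.75. Pnpla2, the lipase that opens triglyceride breakdown, had a log2 ratio of -0.23 ± 0.20 and Acsl1, a fatty acid activating enzyme, -0.61 ± 0.20; the sign of the Pnpla2 ratio turned to 0.05 with spike-in scaling. Of 10 brown fat genes 7 were measured on both arrays, with a median log2 ratio of -0.02 that ranged from -0.12 to 0.25 over the alternatives, and 0 passed 2-fold in either direction. The closest was Adora1, an adenosine receptor, just under 2-fold, which went past 2-fold with spike-in scaling (1.27). Cox7a1, a mitochondrial subunit, had 0.70 ± 0.20 and Dio2, which activates thyroid hormone, 0.05 ± 0.20, with -0.01 at its lowest. Elovl3, Otop1 and Ucp1, the heat-producing protein of brown fat, were not well above background on either array, with Ucp1 signals of 6.96 and 4.54.

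The 7 genes of fat cell progenitors had a median log2 ratio of 0.70 over the 6 well above background on both arrays, with 5 positive ratios and 1 at least 2-fold higher. That gene was Ly6a, which encodes the surface antigen Sca-1 found on mesenchymal and endothelial cells; it gave 891 on the agonist array against 136 on the other, for a log2 ratio of 2.47 ± 0.21. Pdgfra, a receptor of stromal cells in the ovary and in fat, gave 7105 and 3932 over 10 spots, a log2 ratio of 0.60 ± 0.05 (SD over 10 spots). Dlk1 gave 0.81 ± 0.20 and Cd34, shared by progenitors and endothelium, 0.44 ± 0.20. Of 13 partners of PPARG, all were well above background on both arrays, 1 was past 2-fold upwards and 0 downwards, and the median log2 ratio was 0.00, between -0.08 and 0.27 over the alternatives. That gene was Cebpd, a C/EBP factor of early fat cell differentiation that inflammatory signals also raise, at 11407 and 3793, a log2 ratio of 1.35 ± 0.20. Rxrb, a partner of PPARG on DNA, had -0.27 ± 0.20 and was at 0.00 with spike-in scaling.

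**Figure D3:**
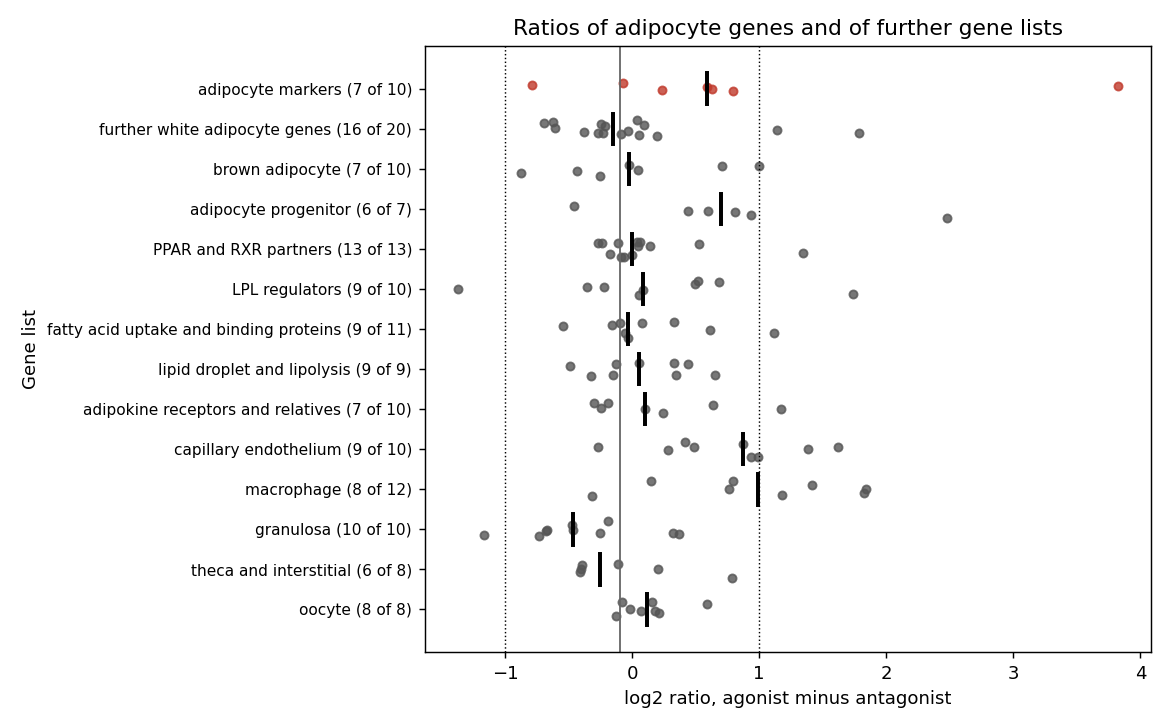
Log2 ratios, agonist minus antagonist, of the genes of each list that were well above background on both arrays (1 point per gene; the number of such genes of the number listed is in brackets). Black bars are list medians, the grey line is the median of all genes and the dotted lines mark a 2-fold difference. The adipocyte markers are in red, with Fabp4 at 3.82; the median of the further white adipocyte genes was -0.15 and that of the capillary endothelium 0.88.

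Genes that work with LPL, FABP4 and the droplet proteins were mixed in direction. Of the 9 regulators of LPL on the array, 1 was past 2-fold upwards and 1 past 2-fold downwards. Gpihbp1, the capillary protein that holds LPL on the vessel wall, gave 7510 on the agonist array against 1901 on the other, for a log2 ratio of 1.74 ± 0.20, while Lpl itself stayed within 1 spot error of 0. Apoc3, an apolipoprotein that slows LPL, gave 1045 and 2291, a log2 ratio of -1.37 ± 0.20. Angptl4, an inhibitor of LPL and a PPAR target, had 0.52 ± 0.20 and Vldlr, a lipoprotein receptor, 0.08 ± 0.20, which went to -0.01 as a mean over its probes. Among 11 fatty acid binding and uptake proteins 9 were measured on both arrays, with a median log2 ratio of -0.03 that turned positive with spike-in scaling (0.24). The relatives of Fabp4 had smaller ratios than Fabp4: Fabp5 had 0.61 ± 0.20, Fabp3 0.33 ± 0.20 and Fabp7, known from glia, 1.11 ± 0.21, the only one of the list past 2-fold, which fell to 0.72 with normexp. Fabp1, of liver, was not well above background on either array. Got2 (-0.09 ± 0.20) and Scarb1 (-0.06 ± 0.20) both turned positive with spike-in scaling. Of 9 further droplet and lipolysis genes 0 passed 2-fold, and Plin2, the droplet coat of cells other than fat cells, had 0.65 ± 0.20, above Plin3 (0.33 ± 0.20) and Hilpda (0.34 ± 0.20). Of 10 adipokine receptors and relatives 7 were well above background on both arrays. C1qtnf1, a relative of adiponectin, gave 3303 and 1238, a log2 ratio of 1.17 ± 0.20, Adipor2 had -0.24 ± 0.20 and Cap1 0.10 ± 0.20; the sign of Adipor2 turned to 0.03 with spike-in scaling. The probes of Lepr, the leptin receptor, disagreed in sign (-0.30 against 0.63 and 0.88). Retnla, Retnlb and Retnlg, the relatives of Retn, were not well above background on either array.

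Because Fabp4 and Cd36 are also made by capillary endothelium and macrophages, the markers of these cells are given beside them. Of 10 capillary endothelium genes 9 were well above background on both arrays and 1, Tek, on the agonist array only; 3 were past 2-fold upwards and 0 downwards. The median log2 ratio of the 9 was 0.88, with 8 positive, and the 10 unscaled signals summed to 49093 (agonists) and 34330 (antagonists). Tie1 (1.62 ± 0.21), a receptor of endothelial cells, and Aqp1 (1.38 ± 0.20), a water channel of capillaries, were past 2-fold. The lower bound for Tek was 4.10-fold higher with the agonists. It fell to a log2 bound of 0.60 with normexp, so 4.10-fold is not a firm minimum. Esam had 0.99 ± 0.20, just under 2-fold, and was past it under 7 of the 11 alternatives, up to 1.27 with spike-in scaling. Egfl7 had 0.41 ± 0.20. Kdr had -0.27 ± 0.20, with 0.38 at its other probe, and was at 0.00 with spike-in scaling. Of 12 macrophage genes 11 were on the array, 8 were well above background on both arrays, 2 on the agonist array only and 1, Cd163, on neither; 4 were at least 2-fold higher and 0 lower. The median log2 ratio of the 8 was 0.99, with 7 positive, and the sum of the 11 signals was 16101 and 12329. Aif1 (1.84 ± 0.21), Mrc1 (1.82 ± 0.21), Adgre1 (1.42 ± 0.21) and C1qa (1.18 ± 0.20) were past 2-fold, but the other probe of Adgre1 gave 0.72 and normexp brought Adgre1 to 0.87. Csf1r had 0.15 ± 0.20 and Itgam -0.31 ± 0.20, with other probes of Itgam between -0.39 and 0.64. The part of endothelium, macrophages or fat in the Fabp4 difference was not tested.

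The ovary itself was well represented on both arrays. All 10 granulosa genes and all 8 oocyte genes were well above background on both, and 6 of the 7 theca and interstitial genes were, all but Lhcgr. The share of all named genes was 73.9%. The granulosa median log2 ratio was -0.47, with 8 of 10 negative, among them Inhbb (-1.17 ± 0.20) and Inha (-0.68 ± 0.20), which encode inhibin subunits; Inhbb was under 2-fold with spike-in scaling (-0.89). Foxl2, a transcription factor of granulosa cells, had 0.32 ± 0.20, and -0.03 as a mean over its probes. Pparg, which is also known from granulosa cells, was 0.24 ± 0.07 (SD over 10 spots) in the same RNA, and 0.18 to 0.51 over the alternatives. The granulosa genes themselves lay between -1.17 and 0.37. Which cells gave the Pparg signal was not tested. Gdf9 (-0.08), Zp3 (-0.13) and Oosp1 (0.07) of the oocyte and Gli1 (-0.11), Cyp17a1 (-0.41) and Hsd3b1 (0.21) of the theca had errors of 0.20, and of these Gdf9, Zp3 and Gli1 turned positive with spike-in scaling. The oocyte median was 0.11 and the theca median -0.26, the latter turning to 0.02 with spike-in scaling.

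**Figure D4:**
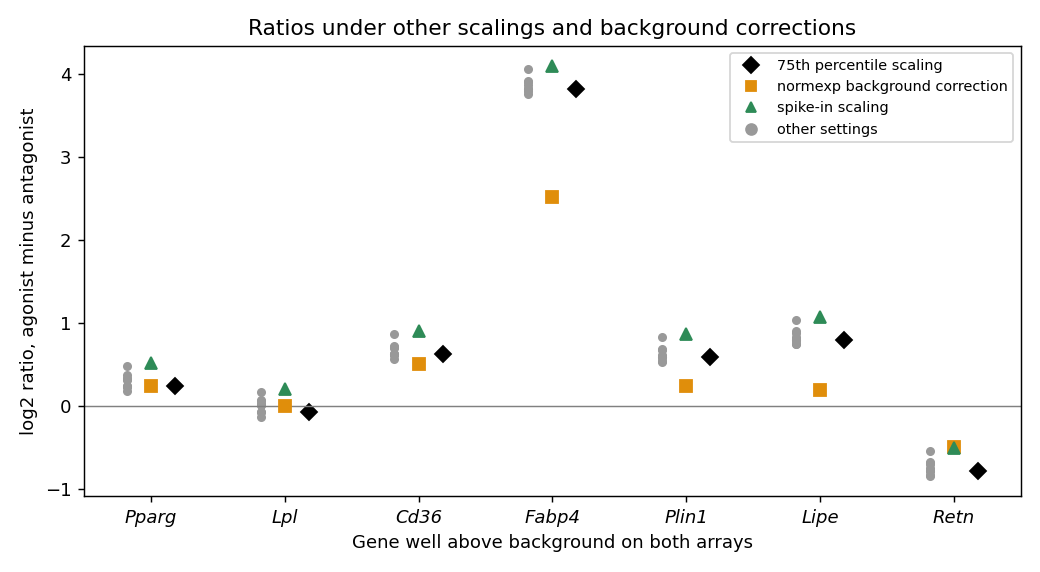
Log2 ratios, agonist minus antagonist, of the 7 adipocyte genes well above background on both arrays under the 75th percentile scaling (black), the normexp background correction (orange), spike-in scaling (green) and the other alternatives (grey). Fabp4 stays between 2.52 and 4.10 and Retn below 0, while the Lpl values fall on both sides of 0.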

How the data were processed

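The 2 single-colour mouse arrays analysed were 1 for TKR agonists and 1 for TKR antagonists, grouped by the sample titles. The deposited intensity of each spot was made by Agilent Feature Extraction 10.10.1.1 with background subtraction and no scaling between arrays. The deposited value table equals this intensity times 1.99 (agonists) or 2.19 (antagonists), with a largest relative deviation of 4.97e-10.

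The 59305 non-control spots were taken as log2, reduced by the array's 75th percentile (672 and 569 signal units) and averaged per probe without spots flagged as outliers. Detection of a probe needed the software's mark on more than 50% of its spots. The files hold accessions and no gene names, so 27230 probes were named through RefSeq transcripts listed for GRCm38, used for names and windows only. The probe with the highest mean signal stood for a gene. For a probe detected on 1 array only, a lower bound was taken against its dim value or the lowest detected signal of the dim array, whichever was higher. Some undetected probes gave more than that lowest signal (Fabp6, 23.3 with the antagonists), so the bounds are not firm minima.

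All 10 adipocyte genes are named. From each further list, the 3 genes with the highest mean signal and those past 2-fold are named (at most 6), with a few others named after their values were seen. One gene that this rule names is not reported here. The genes and lists were chosen with earlier results of these data known. The number of arrays limits the precision. Likeness between genes was not computed, since 2 arrays give 1 ratio per gene. The step that takes ratios and calls 2-fold was run on simulated data with planted ratios well past 2-fold. Only probes detected on both arrays were used, so scaling, detection and lower bounds were not tested. Python 3.11.15, pandas 2.3.3, R 4.3.3 and limma 3.58.1 were used. Alternatives were other scalings, the value table, normexp (offset 50, on median spot signals), loess (span 0.3), other summaries and other filters.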

Additional observations from a re-analysis of the deposited data

How the results depend on the processing

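No paired analysis was possible because there is a single array for agonists and a single array for antagonists. Scaling moves all genes together: the median log2 ratio of all genes, -0.10 under the 75th percentile, was 0.15 unscaled and 0.18 on spike-in controls. Genes past 2-fold, 734 higher and 139 lower, became 1170 and 78 unscaled, 1241 and 73 on spike-in controls, 340 and 48 under normexp, and 1348 and 554 with the positive and significant filter. Relative to the median of all genes the 75th percentile ratios were 3.92 for Fabp4, 0.89 for Lipe, 0.72 for Cd36, 0.68 for Plin1, 0.33 for Pparg, 0.02 for Lpl and -0.69 for Retn. Fabp4 was the 1 gene of the 10 at least 2-fold higher in 12 of 15 alternatives; 2 were higher unscaled, and 2 on spike-in controls (Fabp4 and Lipe), and 4 with a 1.5-fold threshold (with Cd36 and Plin1 added). None was at least 2-fold lower in 12 of the 15; 2 were with the positive and significant filter and with no filter on dim probes (Adipoq and Cfd, face values that rest on signals below the detection limit), and 1 with the 1.5-fold threshold (Retn). Under the positive and significant filter all 10 genes counted as detected on both arrays. The median of the adipocyte genes ranged from 0.24 to 0.86. The oocyte median was 0.36 unscaled and 0.39 on spike-in controls. The other list medians moved by less than the SD over their genes. Signal over background limits Adipoq, Cfd, Cidec, Retn, Plin1 and Lipe. It also limits Fabp4 on the antagonist array, where its 1 spot gave 44.2 against a lowest detected signal of 19.9.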
